A study of Arabidopsis thaliana with 36 samples.

Results

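The genes described here are 139 Arabidopsis thaliana genes whose transcripts were higher in every cold treatment of the study. They were taken from the 33602 genes of the table of read counts by a rule on the measured values. For each gene the counts were turned into counts per 1000000 (CPM, scaled to the total of the library), and the log2 of the group mean plus 1 was compared between each cold group and its control group. That gave 6 changes, since 3 cold treatments were applied to 2 accessions. The 150 genes with the largest value for the smallest of their 6 changes were taken, and 11 of them, such as the early light-induced genes ELIP1 and ELIP2 and the chalcone synthase gene, were left out by the rule. The genes were thus chosen by these 6 changes, which are given below as a description with no test.

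The libraries came from rosettes of N14 and Col-0, accessions that the submitters class as cold tolerant and as intermediate in freezing tolerance. In the cold groups, plants spent 3 days at a constant 4 °C under 90 µE of light: as a second cold period after an earlier 3 days of cold and a lag of 7 days at 20 °C by day and 18 °C by night (C28P3L7T3, triggered), as a first cold period at 35 days of growth (C35P3), or as a first cold period at 28 days (C28P3, primed). The matching groups without cold were plants at the end of the lag (C28P3L7), untreated plants of 35 days (C35) and untreated plants of 28 days (C28), which grew at 20 °C by day and 16 °C by night under 200 µE. Each of the 12 groups held 3 libraries, 1 from each of 3 independent experiments, and each library was a pool of 5 replicate samples, so that p-values measure the spread between such pools. Cold and lower light came together, cold plants were 3 days older than their controls, and the C28 and C28P3 samples were labelled with 15 rosettes where the others had 4. In these bulk samples, more cells of a type and more RNA per cell cannot be told apart.

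Plants of temperate origin become more freezing tolerant after days at low but non-freezing temperature, a process called cold acclimation. Transcription factors of the CBF family bind the CRT/DRE element in promoters and raise cold-regulated (COR) genes, whose products protect membranes and proteins. Acclimating leaves also store sugars, raffinose-type oligosaccharides and proline, make flavonoids and anthocyanins that screen light, and remodel translation and organelles. After a return to warmth these changes are largely undone, and the question behind the lag and the second cold period is what remains of the first.

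Total counts per library ran between 17861514 and 31046237 over the 36 libraries, and all 139 genes were among the 20263 that passed the filter on low counts. The rosette label was checked against marker genes. The summed level of 4 green leaf markers (RBCS1A, RBCS2B, CAB1 and RCA) lay between 32961 and 61121 CPM in cold libraries, and between 55844 and 76305 CPM without cold. The 4 root markers summed to between 1.74 and 21.5 CPM in cold, and to between 9.74 and 139 CPM without cold, with BGLU21 at 0 in 3 of the 12 groups. The 6 floral organ markers summed to between 0.328 and 11.8 CPM in cold, and to between 0.112 and 13.3 CPM without cold, and LFY or AP1 was at 0 in 4 groups of N14. The part of these markers in the results was not tested.

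As a group the 139 genes took 1.86% to 2.99% of all counts in the cold libraries (median 2.18%), against 0.200% to 0.42% (median 0.311%) in the libraries without cold. The rule chose the genes by changes between these libraries, so it favours their separation, and no share of all genes so separated is given. In 129 of the 139 genes, each of the 18 cold libraries lay above each of the 18 libraries without cold, and in 95 each cold library was more than 2 times the highest library without cold. The exceptions, whose libraries overlapped, were PHI-1, GolS3, AT5G17460, AT4G33070, AT4G16563, AT4G14090, AT1G24580, AT3G14395, AT1G70640 and ATCG00190. The smallest of the 6 changes had a median of 1.99 on the log2 scale over the 139 genes and ran from 1.72 to 4.35, while its median over the 17705 genes with a mean of at least 1 CPM was -0.10. The mean over cold libraries had a median of 73.1 CPM and lay between 4.41 and 1926 CPM, on a scale that also grows with the length of a transcript. In cold, 52 genes reached a mean of 100 CPM and 4 stayed under 10 CPM.

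**Figure D1:**
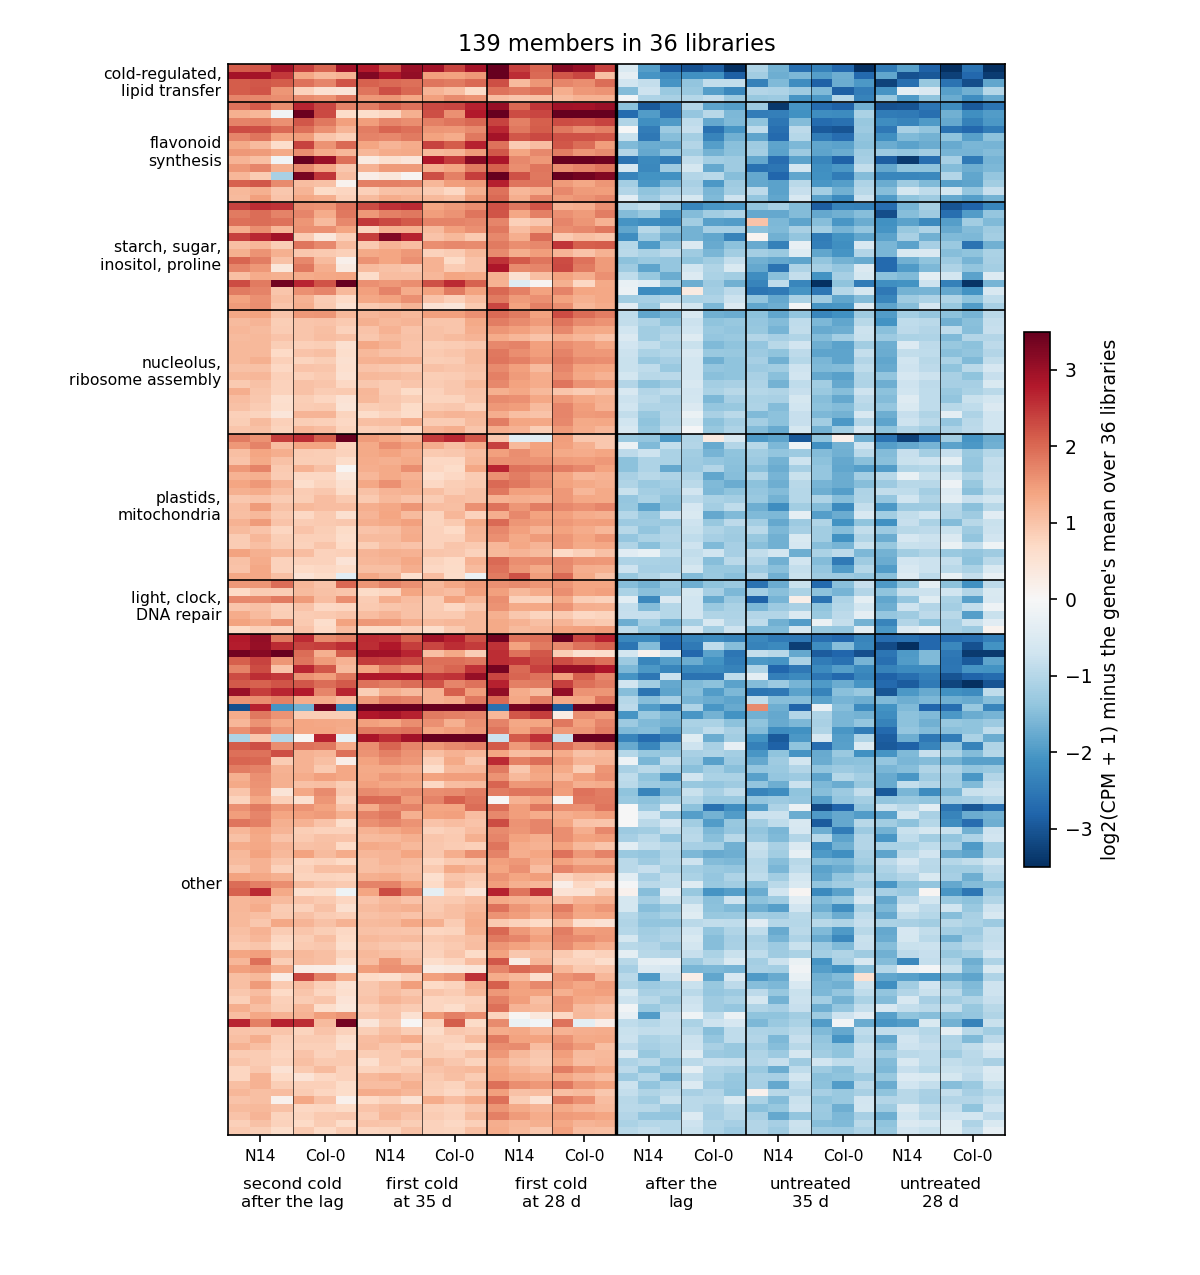
Level of each of the 139 genes (rows, ordered by role) in each of the 36 libraries (columns, 3 per group), as log2(CPM + 1) minus the gene's mean over all libraries. The 18 cold libraries stand on the left and the 18 libraries without cold on the right, and 129 genes had all cold libraries above all others. The rule chose the genes by changes between these libraries, which favours such a separation.

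The median change was 2.29 in N14 and 2.08 in Col-0 for the second cold period. It was 2.38 in N14 and 2.46 in Col-0 for the first cold at 35 days, and 2.66 in N14 and 2.55 in Col-0 for the first cold at 28 days. Over all genes with a mean of at least 1 CPM the medians had the same order. For the second cold, the first at 35 days and the first at 28 days they were 0.17, 0.18 and 0.24 in N14. In Col-0 they were 0.13, 0.15 and 0.16. The second cold period gave the smallest of the 6 changes for most genes, 27 in N14 and 76 in Col-0. The largest change fell in the first cold at 28 days in N14 for 60 genes and in Col-0 for 40 genes. These counts rest on the changes that the rule used, and no matching counts over all genes are given. The rosette number and the age of the plants differ between these treatments as well.

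Cold-regulated and lipid transfer proteins gave 5 genes, with a median of 699 CPM in cold libraries and 32.5 CPM without cold. LTI78 (AT5G52310, also known as RD29A and COR78), a hydrophilic protein long used as a marker of CBF action, lay between 1090 and 2423 CPM in cold (median 1951), against 52.7 to 322 CPM without cold (median 135). Its cold libraries were all more than 3 times the highest library without cold. AZI1 (AT4G12470) and its neighbour EARLI1 (AT4G12480) encode proline-rich lipid transfer proteins of the cell wall and plastid envelope, and AZI1 is known for systemic immunity. AZI1 lay between 670 and 1957 CPM in cold (median 1003), against 7.90 to 113 CPM without cold (median 24.6). EARLI1 lay between 103 and 887 CPM in cold (median 238), against 3.97 to 39.2 CPM without cold (median 10.5). The 2 genes lie side by side and are similar, so the counting could split reads between them. AT4G30650, annotated as low temperature and salt responsive, had a median of 733 CPM in cold and 101 CPM without cold.

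Flavonoid synthesis gave 13 genes, with a median of 111 CPM in cold and 10.3 CPM without cold. Steps from phenylalanine to flavonols were present: PAL2 (phenylalanine ammonia-lyase), 4CL3 (the CoA ligase of the flavonoid branch), TT5 (chalcone isomerase), CHIL (a chalcone isomerase-like protein), F3H (flavanone 3-hydroxylase), TT7 (flavonoid 3'-hydroxylase) and FLS1 (flavonol synthase). F3H (AT3G51240) lay between 150 and 403 CPM in cold (median 242), against 3.71 to 23.2 CPM without cold (median 7.49), and its smallest change was 3.83. FLS1 lay between 150 and 412 CPM in cold (median 235), against 7.13 to 64.1 CPM without cold (median 13.2). Later steps were represented by the glycosyltransferases UGT78D3, UGT84A2 and AT4G14090, by RHM1 (rhamnose synthase) and by GSTF12 (TT19, a glutathione transferase needed to move anthocyanins to the vacuole). GSTF12 (AT5G17220) lay between 14.1 and 235 CPM in cold (median 75.5), against 0.620 to 8.02 CPM without cold (median 2.47). Among regulators of the pathway MYB111, an activator of the flavonol genes, was a member.

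Of a list of 25 flavonoid and phenylpropanoid enzymes, 10 were among the 139 genes and 1 was left out by the rule. All 6 changes were above 0 for 23 of the 25 and at least 1 for 20. The smallest change had a median of 1.57 over this list, against -0.10 over all genes with a mean of at least 1 CPM. For this and the other lists, no share of all genes with such changes is given. The lists were chosen with earlier results of these data known. The late anthocyanin genes LDOX, DFR and UF3GT, with smallest changes of 1.66, 1.53 and 1.45, lay just under the rule's limit. C4H, with a smallest change of 0.27, and 4CL1, with -0.60, were the early enzymes furthest from it beside PAL4 and 4CL2. Of 13 regulators of the pathway, 8 had all 6 changes above 0, and the repressor MYBL2 reached -3.09 as its smallest change. The median smallest change of the 13 was 0.50.

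Starch, sugar, inositol and proline metabolism gave 14 genes, with a median of 243 CPM in cold and 28.0 CPM without cold. CT-BMY (AT4G17090, BAM3), the plastid beta-amylase that releases maltose from starch, lay between 1080 and 2007 CPM in cold (median 1468), against 50.1 to 206 CPM without cold (median 153). SUS1 (AT5G20830), a sucrose synthase, lay between 230 and 609 CPM in cold (median 365), against 11.3 to 54.3 CPM without cold (median 23.5). Enzymes that build starch were members as well as those that break it down: APL3 (a large subunit of ADP-glucose pyrophosphorylase), GBSS1 (granule-bound starch synthase), SBE2.1 (branching enzyme) and ISA3 (debranching enzyme). GolS3 (AT1G09350, CBF-regulated galactinol synthase, at the head of raffinose synthesis) lay between 27.4 and 619 CPM in cold (median 128), against 1.74 to 31.7 CPM without cold (median 11). Its cold and warm libraries overlapped, and its changes were wide, between 1.95 for the first cold at 28 days in N14 and 4.70 for the second cold in Col-0. MIPS1 (myo-inositol phosphate synthase, which makes the inositol that galactinol needs) and P5CS2 (the enzyme that starts proline synthesis) had medians of 644 and 389 CPM in cold, and of 118 and 54.7 CPM without cold. iPGAM1, a phosphoglycerate mutase of glycolysis, varied least among the 139: its 6 changes spanned 0.27 on the log2 scale.

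The other members of the sugar list were not uniformly higher in cold. Of its 24 genes, 5 were members, 8 had all changes at least 1, and GolS2 had a smallest change of -2.03. Of 20 COR and LEA (late embryogenesis abundant) genes, 1 was a member, 6 were left out by the rule and 9 had all 6 changes at least 1. None of 21 cold and light transcription factors was a member, and 2 had all changes at least 1. The median smallest change was 0.49 over the sugar list, 0.82 over the COR and LEA list and 0.26 over these transcription factors. CBF1, CBF2 and DREB1A (CBF3), which peak within hours of a drop in temperature, had smallest changes of -1.84, 0.00 and -0.39.

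Ribosome assembly in the nucleolus gave 16 genes, with a median of 99.7 CPM in cold and 20.6 CPM without cold. FIB2 (AT4G25630, a fibrillarin, the RNA methyltransferase of box C/D particles) lay between 229 and 574 CPM in cold (median 318), against 23.0 to 80.2 CPM without cold (median 40.0). NOP56 (AT1G56110), a core protein of the same particles, lay between 250 and 580 CPM in cold (median 374), against 44.9 to 113 CPM without cold (median 80.0). NOP56, AT5G27120 and AT3G05060 encode similar proteins, between which the counting could split reads. NSN1 (a nucleolar GTPase), PRMT3 (an arginine methyltransferase) and PWP2 (a protein of the small-subunit processome) were also members. The first cold at 28 days gave a larger change than that at 35 days in all 16 genes in N14 and in 14 in Col-0. In N14 and Col-0 this also held for 13 and 12 of the 13 flavonoid genes. It held for 16 and 9 of the 19 of plastids and mitochondria, and 8 and 8 of the 14 of starch and sugar metabolism. For light and clock it held in 5 and 4 of 7, for cold-regulated genes in 2 and 3 of 5, and for the remaining 65 in 51 and 39. The change was smallest in the second cold for 5 of the 16 nucleolar genes in N14 and for 11 in Col-0. The rule used these changes, and no counts over all genes are given.

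Plastids and mitochondria gave 19 genes, with a median of 98.2 CPM in cold and 14.5 CPM without cold. OEP16-1, a channel protein of the outer plastid envelope, lay between 613 and 1001 CPM in cold (median 806), against 114 to 312 CPM without cold (median 178). The others included chaperonins (Cpn60alpha2, HSP60-2), the protein translocase SECA2, the protease LON1, the alternative NADH dehydrogenase NDB2 and the RNA-binding pentatricopeptide proteins SVR7 and OTP81. Light, clock and DNA repair gave 7 genes, with a median of 52.3 CPM in cold and 9.69 CPM without cold. CCA1 (AT2G46830), a morning-phased repressor of the circadian clock, lay between 68.3 and 140 CPM in cold (median 100), against 4.28 to 26.3 CPM without cold (median 11.7). PHR1 (a photolyase) and DDB2 (a subunit that recognises damaged DNA), which act on lesions made by ultraviolet light, had medians of 16.0 and 13 CPM in cold, and of 2.56 and 2.36 CPM without cold. Of 16 clock genes, 1 was a member, 1 was left out by the rule, and 13 had all 6 changes above 0. The median smallest change of the 16 was 0.57.

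**Figure D2:**
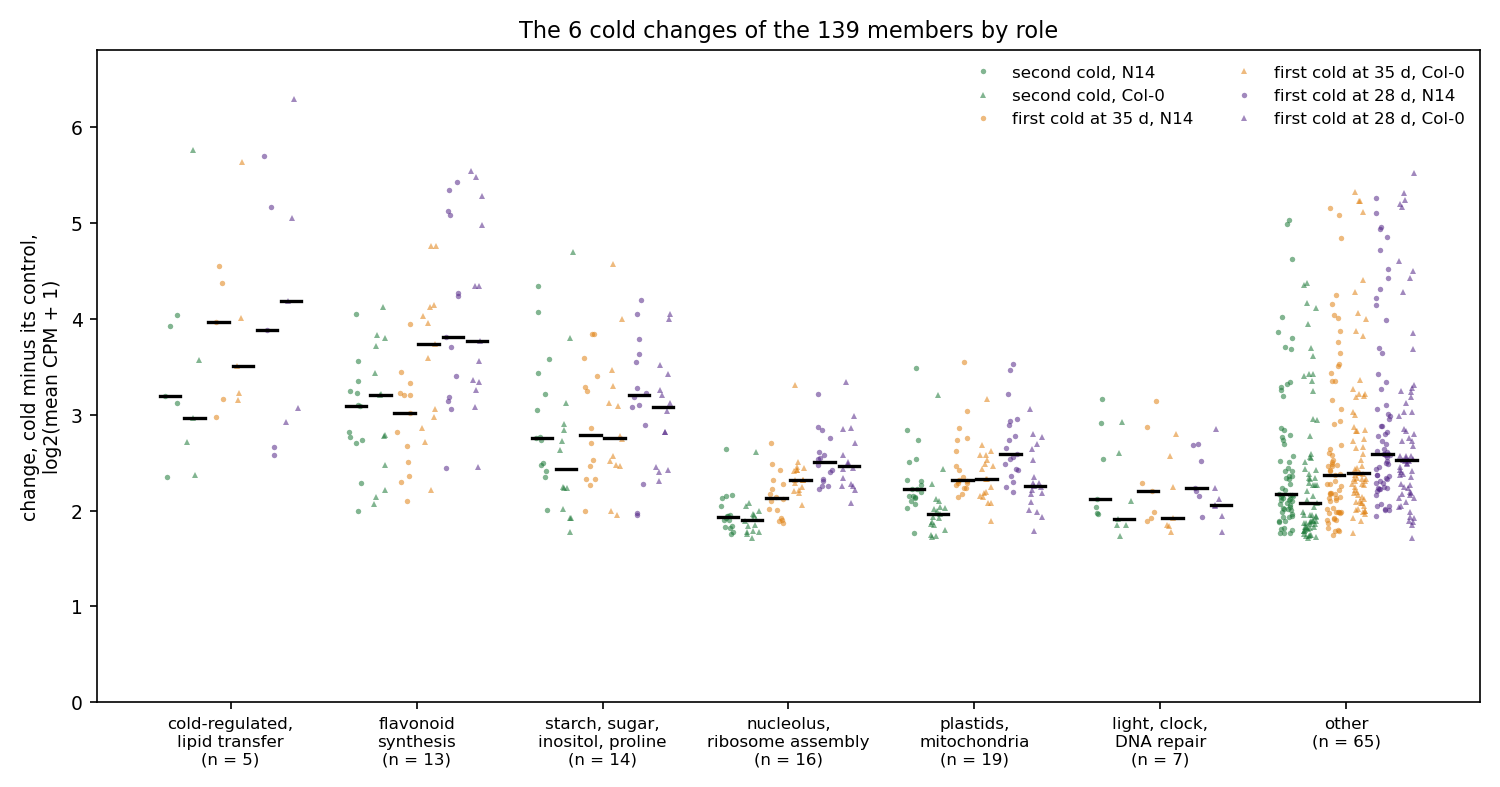
The 6 changes of each of the 139 genes, cold minus its control on the log2(mean CPM + 1) scale, by role (x axis) and by treatment and accession (colour and marker), with the median as a bar. The highest change was 6.29, for AZI1 in Col-0 in the first cold at 28 days. The lowest bar was 1.90, for nucleolar genes in the second cold in Col-0. Over all 139 genes together, which no bar shows, the lowest median was 2.08, for the second cold in Col-0.

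The gene with the largest smallest change was AT4G01985, annotated as uncharacterized. It lay between 22 and 83.1 CPM in cold (median 42.2), against 0.0743 to 0.585 CPM without cold (median 0.288), and its smallest change was 4.35. AT1G16850 (3.94) and AT4G18422 (3.42), also uncharacterized, stood among the first 10 with AZI1 (3.92), F3H (3.83), CIPK25 (3.69), the glycosyltransferase AT2G16890 (3.61), SUS1 (3.58), EARLI1 (3.51) and AT2G23910 (3.5). CIPK25 (AT5G25110), a kinase that works with calcium sensors of the calcineurin B-like type, lay between 25.6 and 211 CPM in cold (median 73.5), against 0.768 to 19.2 CPM without cold (median 2.91). At the limit of the rule, AT3G17830, AT3G15460 and AT1G24310 were just inside with 1.72 each. SAT32 (1.72), AT2G22590 (1.71) and AT1G51380 (1.71) were just outside.

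Most genes were steady among the libraries of a cold group. The largest fold between 2 libraries of the same cold group had a median of 1.54 over the 139 genes and was under 2 in every cold group for 107. Cpn60alpha2 (0.31), AT1G48570 and TZP (0.32 each) and EMB3108 (0.34) followed iPGAM1 as the genes with the narrowest span of changes. The widest spans were those of AT4G16563 (2.91), AT4G14090 (2.83), GSTF12 (2.77), GolS3 (2.75) and PHI-1 (2.44).

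PHI-1 (AT1G35140, a phosphate-induced, EXORDIUM-like protein) stood apart from the other genes. In the second cold it had 0.992, 108 and 3.06 CPM in N14, and 4.27, 173 and 2.64 CPM in Col-0 in experiments 1, 2 and 3. In the first cold at 28 days it had 1.78, 170 and 208 CPM in N14, and 1.19, 259 and 220 CPM in Col-0. The low libraries thus came from the same experiments in both accessions, namely 1 and 3 of the second cold and 1 of the first cold at 28 days. In the first cold at 35 days all 6 libraries were high, with 251, 237 and 271 CPM in N14, and 256, 224 and 327 CPM in Col-0. AT4G16563, annotated as an aspartyl protease, was low in the same libraries: 5.21, 24.0 and 5.58 CPM in N14, and 12.7, 83.8 and 9.88 CPM in Col-0 in the second cold. In the first cold at 28 days it had 6.67, 56.6 and 75.6 CPM in N14, and 6.70, 192 and 240 CPM in Col-0. These were the only genes of the 139 whose libraries differed by over 10-fold within a cold group, by 218-fold for PHI-1 and 35.9-fold for AT4G16563.

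**Figure D3:**
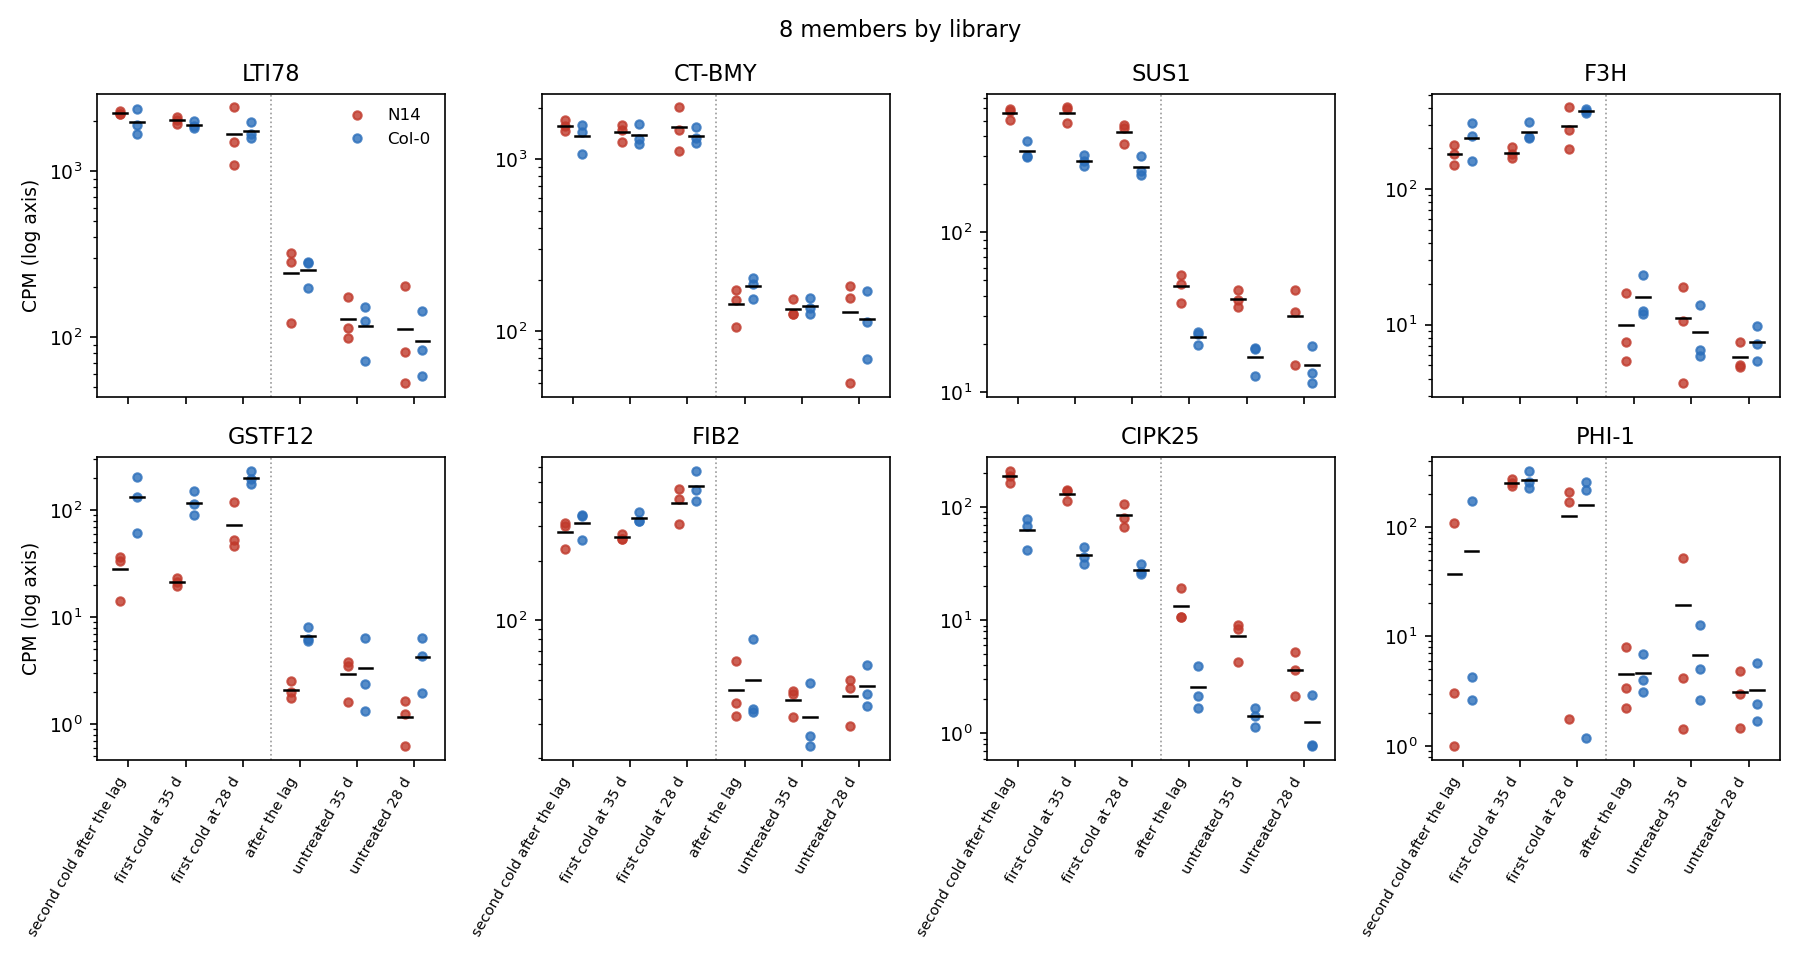
Level of 8 of the 139 genes in CPM (log axis) in each library, by condition (x axis) for N14 and Col-0, with the group mean as a line; cold conditions stand left of the dotted line. LTI78 lay between 1090 and 2423 CPM in cold, CIPK25 was higher in N14, GSTF12 was lower in N14, and PHI-1 was low in 3 of the 6 cold libraries of the second cold and the first cold at 28 days in each accession.

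Promoters of the genes were read from the TAIR10.1 assembly, as the 250 bases before the annotated gene start and the 50 after it, for 138 genes whose identifier matched. The 6 stretches shown are the 250 bases before the start of members that hold repeats of an element, chosen to show the kinds of promoter in the group. Capitals mark the matches, on either strand, of the elements named here for each gene and of no others, and the stretches read 5′ to 3′ on the strand of the gene. LTI78 (chr5:21240467-21240716, plus strand) holds CCGAC, the CRT/DRE core bound by CBF factors, at positions -140, -90 and -33 from the gene start. GolS3 (chr1:3019389-3019638, plus strand) holds CCGAC on the other strand (GTCGG) at -216 and -205, and the G-box CACGTG at -96. MIPS1 (chr4:18472049-18472298, minus strand) holds CACGTG, a site of bHLH and bZIP factors, at -142, -81 and -65. BBX8 (chr5:19563833-19564082, minus strand), a B-box protein gene, holds the evening element AAAATATCT at -18 and, on the other strand, at -235 and -199. 4CL3 (chr1:24171636-24171885, minus strand) holds ACCTACC, a site of MYB factors of the phenylpropanoid pathway, at -120 and -68. NOP56 (chr1:20986953-20987202, minus strand) holds the telo box AAACCCTA at -17 and the site II element GGCCCA at -126, -81 and -74, which are common upstream of ribosome genes.
LTI78: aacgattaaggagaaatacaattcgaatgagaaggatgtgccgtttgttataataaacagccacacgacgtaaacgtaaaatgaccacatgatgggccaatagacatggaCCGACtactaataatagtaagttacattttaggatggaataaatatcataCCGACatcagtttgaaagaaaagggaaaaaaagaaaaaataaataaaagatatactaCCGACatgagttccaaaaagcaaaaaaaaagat
GolS3: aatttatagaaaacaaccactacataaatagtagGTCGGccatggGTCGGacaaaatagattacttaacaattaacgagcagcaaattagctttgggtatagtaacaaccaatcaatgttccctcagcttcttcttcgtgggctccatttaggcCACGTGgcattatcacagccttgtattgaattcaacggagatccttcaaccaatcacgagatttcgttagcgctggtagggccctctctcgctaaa
MIPS1: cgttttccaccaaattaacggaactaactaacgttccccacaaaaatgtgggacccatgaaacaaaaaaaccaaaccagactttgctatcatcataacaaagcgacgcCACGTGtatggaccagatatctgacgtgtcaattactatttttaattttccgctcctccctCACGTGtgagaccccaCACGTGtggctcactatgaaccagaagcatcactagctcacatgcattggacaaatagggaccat
BBX8: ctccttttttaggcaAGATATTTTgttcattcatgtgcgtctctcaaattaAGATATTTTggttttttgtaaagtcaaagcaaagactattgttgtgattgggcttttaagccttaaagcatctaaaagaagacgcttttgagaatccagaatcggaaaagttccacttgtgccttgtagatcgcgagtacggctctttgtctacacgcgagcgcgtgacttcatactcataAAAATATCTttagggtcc
4CL3: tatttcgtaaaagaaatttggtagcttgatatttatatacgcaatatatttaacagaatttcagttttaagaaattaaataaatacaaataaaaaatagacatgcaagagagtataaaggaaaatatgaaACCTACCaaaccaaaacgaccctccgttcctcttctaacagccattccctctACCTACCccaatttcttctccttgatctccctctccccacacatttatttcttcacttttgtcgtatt
NOP56: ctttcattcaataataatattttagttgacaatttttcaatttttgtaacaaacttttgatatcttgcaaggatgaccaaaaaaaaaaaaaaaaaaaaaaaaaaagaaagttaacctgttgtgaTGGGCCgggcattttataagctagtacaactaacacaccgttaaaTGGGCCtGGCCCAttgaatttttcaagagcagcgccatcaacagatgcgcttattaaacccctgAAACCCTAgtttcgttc

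Over the 300-base windows, CCGAC stood in 25.4% of the 138 promoters, against 15.0% of all 27443 promoters of the annotation. This reference includes genes with few or no counts: 17230 of the 27443 had a mean of at least 1 CPM. ACGTGNC, the core of the abscisic acid response element, stood in 24.6% of the promoters of the group and 10.3% of all. CACGTG, which can overlap ACGTGNC, stood in 16.7% of them and 7.68% of all. AAAATATCT stood in 7.97% of them and 2.82% of all, and ACCTACC in 5.07% of them and 1.38% of all. AAAAATCT, a CCA1 binding site, stood in 5.07% of them and 7.88% of all. The elements AAACCCTA and GGCCCA were added after the data were seen. They stood in 13% and 20.3% of the promoters of the group, and in 6.22% and 15.5% of all. By role, AAACCCTA stood in 7 and GGCCCA in 9 of the 16 nucleolar promoters, ACGTGNC in 7 of the 14 of starch and sugar metabolism, and ACCTACC in 3 of the 13 of flavonoid synthesis. In the 250 bases before the start alone, the share with AAACCCTA was 5.07% in the group and 4.49% of all. These are matches of letters in a window and were not tested.

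The comparisons that follow set plants of the same cold status against each other, so the rule did not fix their direction, though they use the libraries that chose the genes. Counts were tested for all 20263 genes with edgeR's quasi-likelihood test, and a gene was called at a Benjamini-Hochberg adjusted p under 0.05 over all of them. Changes are log2 fold changes ± SE. What remained of the first cold after the lag of 7 days was asked by setting plants at the end of the lag against untreated plants of 35 days, which were 3 days younger.

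After the lag no change of the 139 genes passed the test in either accession, and no gene of all 20263 did (0.0% higher and 0.0% lower). LTI78 had 322, 284 and 122 CPM after the lag and 98.1, 175 and 113 CPM in untreated N14, and 197, 280 and 282 CPM after the lag and 71.4, 153 and 125 CPM in untreated Col-0. The lag libraries lay above the untreated ones in Col-0 and overlapped them in N14. The values of LTI78 were above the medians of the 139 genes given below: its change was 0.87 ± 0.38 in N14 (edgeR adjusted p = 0.935) and 1.05 ± 0.39 in Col-0 (edgeR adjusted p = 0.983). At an unadjusted p under 0.05, edgeR gave 7 genes higher and 4 lower in N14, and 13 higher and 0 lower in Col-0. Of all genes, 1.629% were higher and 2.907% lower in N14 at that threshold, and 1.895% and 1.411% in Col-0. DESeq2 called 0 higher and 1 lower (AT4G33070) in N14, and 0 in either direction in Col-0.

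The values lay above 0 for 95 genes in N14 (median 0.10) and for 120 in Col-0 (median 0.27), where 48.6% and 48.7% of all genes tested did, with medians of -0.00 and -0.01. By role, 14 nucleolar genes of 16 in N14 and all 16 in Col-0 were above 0, with medians of 0.14 and 0.35. The genes were read in the same libraries, so they are not independent counts. With both accessions in one comparison, added after the data were seen, 116 genes were above 0 (median 0.20). Again edgeR called 0 of them, and 0.0% of all genes in each direction. At an unadjusted p under 0.05 it gave 15 higher and 2 lower, where 2.532% of all genes were higher and 3.075% lower. AT4G33070, a pyruvate decarboxylase singled out after its values were seen, had 0.174, 0.0849 and 0.0560 CPM after the lag and 8.71, 0.651 and 0.355 CPM in untreated N14. Its change was -4.85 ± 0.95 (edgeR adjusted p = 0.145). A single untreated library of the first experiment was high, and the same library held 52.4 CPM of PHI-1. The difference between accessions in the lag comparison was called by edgeR for 0 of the 139 genes, and for 0.0% of all genes in each direction. At an unadjusted p under 0.05 it gave 1 gene higher and 5 lower, where 1.066% of all genes were higher and 2.004% lower.

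The second cold period was compared with the first cold at 35 days, so that both groups had spent the last 3 days in cold and differed in their history and, by 3 days, in age. No gene was called in N14 (0.00494% of all genes higher, 0.0% lower) or in Col-0 (0.0% in each direction). At an unadjusted p under 0.05, edgeR gave 2 genes higher and 4 lower in N14, and 1 higher and 4 lower in Col-0. Of all genes, 3.504% were higher and 5.207% lower in N14 at that threshold, and 2.25% and 2.374% in Col-0. DESeq2 called 1 lower in N14 (AT1G30280) and 0 in Col-0. The difference between accessions was called for 0 genes by edgeR and for 0 at an unadjusted p under 0.05. At the unadjusted threshold 0.4294% of all genes were higher and 0.6465% lower. The median change was -0.04 in N14 and -0.13 in Col-0, with 58 and 29 genes above 0, where 54.3% and 51.1% of all genes tested were. A fit of only the groups compared called 3 higher and 4 lower in N14, and 0 higher and 1 lower in Col-0. No share of all genes is given for that fit.

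With both accessions together, a comparison added after the data were seen, 0 genes were higher and 3 were lower, where 0.642% of all genes were higher and 1.45% lower. AT1G30280, annotated as a DnaJ-domain protein, had 51.4, 76.2 and 62.5 CPM in the second cold and 148, 157 and 138 CPM in the first cold in N14. It had 37.7, 38.0 and 37.9 CPM in the second cold and 75.3, 72.5 and 69.1 CPM in the first cold in Col-0. The groups did not overlap in either accession, and the change was -1.10 ± 0.22 (edgeR adjusted p = 0.0109). AT4G16563 changed by -2.92 ± 0.64 (edgeR adjusted p = 0.0151) and AT5G62960 by -0.90 ± 0.24 (edgeR adjusted p = 0.0465). Leaving out single libraries brought the adjusted p up to 0.0519 for AT1G30280 (1 of 12 libraries, C28P3L7T3 Col-0 replicate 1), to 0.0671 for AT4G16563 (4 of 12) and to 0.167 for AT5G62960 (10 of 12).

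Age was compared in plants in the first cold and in untreated plants, and the untreated plants of 35 days are also those of the lag comparison. In each of these age comparisons the 28-day samples were labelled with 15 rosettes and the 35-day samples with 4. Age and rosette number thus cannot be told apart in them. In the first cold, 35-day plants of both accessions together were set against 28-day plants, in a comparison added after the data were seen that shares the C35P3 libraries with the one above. Of the 139 genes, 4 were higher and 12 lower at 35 days, where 6.16% of all genes were higher and 4.28% lower. The counts were 1 higher and 2 lower without C28P3 Col-0 replicate 1, and 15 higher and 62 lower in a fit of only the groups compared. The shares of all genes above belong to the fit of all 12 groups, and none are given for these other fits. The marker sums of the cold libraries differed between the ages without overlap, other than the root markers in Col-0, which overlapped. The floral organ markers summed to between 6.54 and 10.2 CPM at 35 days and to between 1.03 and 1.51 CPM at 28 days in Col-0, and to between 0.328 and 0.587 CPM at 35 days and 0.674 and 0.823 CPM at 28 days in N14. The root markers summed to between 3.89 and 7.70 CPM at 35 days and 7.41 and 21.5 CPM at 28 days in Col-0, and to between 3.48 and 3.93 CPM at 35 days and 5.49 and 7.41 CPM at 28 days in N14. The green leaf markers summed to between 51939 and 53385 CPM at 35 days and 38044 and 46256 CPM at 28 days in Col-0, and to between 47219 and 52657 CPM at 35 days and 32961 and 45786 CPM at 28 days in N14. Their part in the changes with age was not tested. The median change was -0.25, against 0.01 over all genes, and 103 genes lay below 0. Flavonoid genes led the lower ones named here. AT4G14090, a UDP-glycosyltransferase, had 13.8, 15.6 and 12.2 CPM at 35 days and 168, 57.7 and 44.6 CPM at 28 days in N14, and 59.1, 42.2 and 66.5 CPM at 35 days and 212, 131 and 119 CPM at 28 days in Col-0. The ages did not overlap in either accession, and the change was -1.96 ± 0.35 (edgeR adjusted p = 0.00161). TT7 changed by -1.55 ± 0.33 (edgeR adjusted p = 0.00658), GSTF12 by -1.15 ± 0.31 (edgeR adjusted p = 0.0204) and APL3 by -0.91 ± 0.26 (edgeR adjusted p = 0.0275).

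Of the wider list of 25 flavonoid enzymes, 0 were higher and 9 lower in the first cold at 35 days, with a median of -0.51. Of 19 COR and LEA genes tested, 8 were higher and 0 lower, with a median of 0.76. Over all genes 6.16% were higher and 4.28% lower, with a median of 0.01. Among the members, 3 nucleolar genes (PRMT3, AT5G27120 and AT3G05060) were lower at 35 days, and 15 of the 16 lay below 0. The higher genes were AT5G17460, annotated as a subunit of glutamyl-tRNA amidotransferase (1.36 ± 0.33), AT1G30280 (0.74 ± 0.21), AT5G62960 (0.74 ± 0.24) and AT4G36010, of the thaumatin family (0.64 ± 0.20), with edgeR adjusted p of 0.0136, 0.0300, 0.0483 and 0.0444. With single libraries left out, the calls of AT4G14090, TT7 and AT5G17460 held in all 12 fits. Those of GSTF12, APL3, AT1G30280, AT5G62960 and AT4G36010 were lost in between 4 (GSTF12) and 11 (AT4G36010) of the 12, with adjusted p of at most 0.123.

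In untreated plants, 35 against 28 days, 1 gene was higher and 0 lower in N14 (0.0148% and 0.00494% of all genes), and 1 was higher and 9 lower in Col-0 (1.33% and 2.07%). A fit of only the groups compared called 0 higher in N14 and 0 lower in Col-0. The floral organ markers summed to between 6.83 and 11.3 CPM at 35 days and 1.04 and 1.48 CPM at 28 days in Col-0, and to between 0.355 and 0.858 CPM at 35 days and 0.488 and 0.659 CPM at 28 days in N14. The root markers summed to between 13.8 and 28.4 CPM at 35 days and 45.5 and 139 CPM at 28 days in Col-0, and to between 14.6 and 94.97 CPM at 35 days and 45.7 and 50.8 CPM at 28 days in N14. These markers thus differed between the ages without overlap in Col-0 and overlapped in N14, and their part in the calls was not tested. AT1G80130, a tetratricopeptide-like protein, had 20.9, 25.3 and 19.4 CPM at 35 days and 8.52, 7.44 and 10.3 CPM at 28 days in N14, and 15.0, 18.1 and 14.0 CPM at 35 days and 5.77, 4.53 and 6.70 CPM at 28 days in Col-0. The ages did not overlap, and the change was 1.35 ± 0.24 in N14 (edgeR adjusted p = 0.0441) and 1.56 ± 0.25 in Col-0 (edgeR adjusted p = 0.00114). Of the 9 genes lower in Col-0, 4 belonged to plastids and mitochondria: OTP81 (-0.997 ± 0.22), SVR7 (-0.80 ± 0.23), SECA2 (-0.77 ± 0.21) and EMB3108, annotated as an RNA helicase (-0.54 ± 0.14). The others were PDE327, an oxidoreductase by its annotation (-0.84 ± 0.23), AT3G58520, AT1G24090, AT3G17830 and AT1G24310. Their edgeR adjusted p lay between 0.0155 and 0.0458. Without the C28 Col-0 replicate 1 library 0 of them were called, and without C35 Col-0 replicate 3, 13 genes were. In N14 the call of AT1G80130 was lost in 4 of 6 such fits (adjusted p up to 0.317), and in Col-0 it held in all 6.

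With both accessions together, added after the data were seen, 5 genes were higher and 10 lower with age, where 3.51% and 4.25% of all genes were. A fit of only the groups compared called 1 higher and 0 lower. AT1G80130 changed by 1.45 ± 0.17 (edgeR adjusted p = 2.42e-05), EARLI1 by 1.17 ± 0.35 (edgeR adjusted p = 0.0395) and NDB2 by 0.83 ± 0.26 (edgeR adjusted p = 0.0439). PDE327 (-0.59 ± 0.16), SECA2 (-0.49 ± 0.15), AT1G48570 (-0.44 ± 0.12) and EMB3108 (-0.40 ± 0.10) were lower. Of these, the call of AT1G80130 held in all 12 fits without a single library, and the others were lost in between 2 (EMB3108) and 9 (NDB2) of them.

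**Figure D4:**
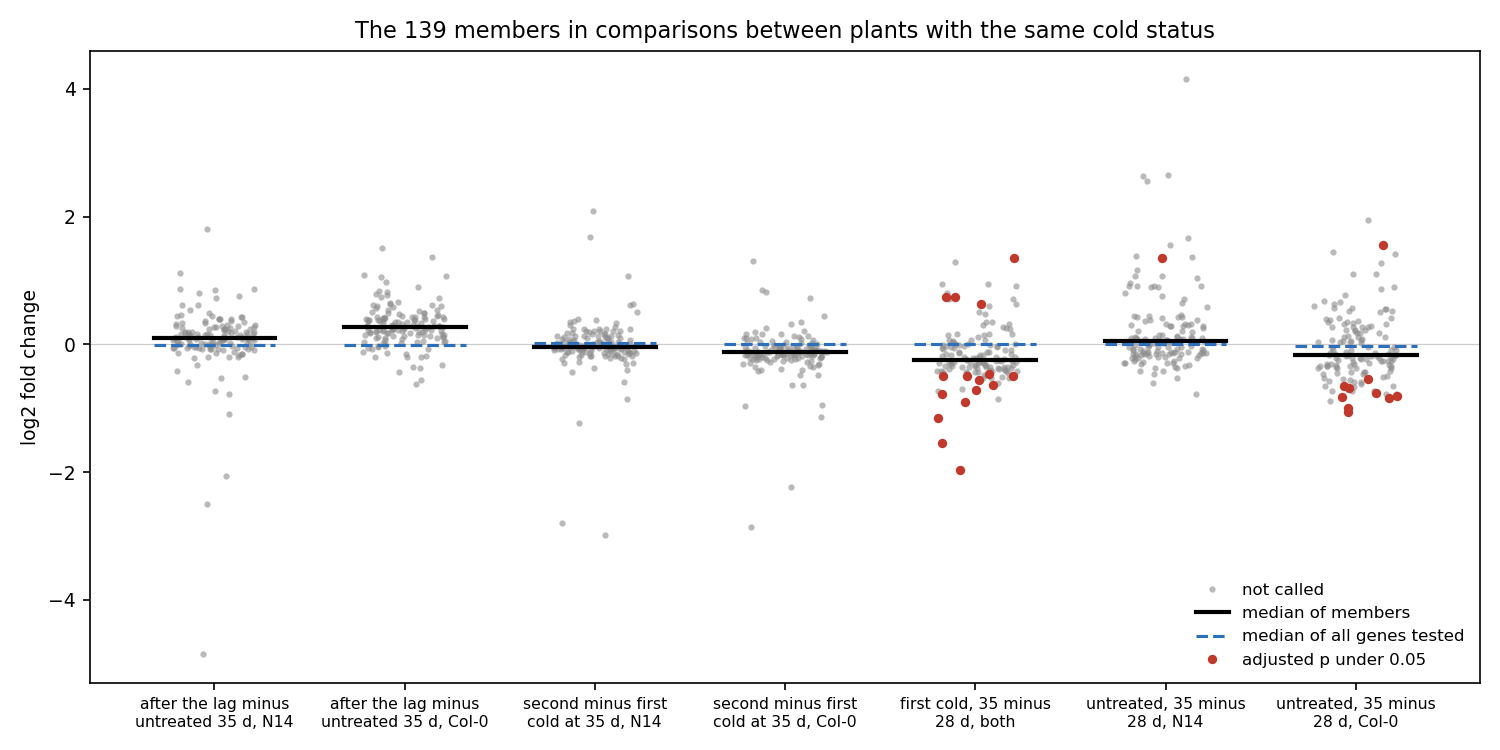
Log2 fold changes of the 139 genes in comparisons between plants of the same cold status (x axis), with called genes in red, the median of the genes as a black bar and the median of all genes tested as a dashed blue line. After the lag and in the second cold no gene was called within either accession, and with both accessions together 4 were higher and 12 lower in the first cold at 35 against 28 days.

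The accessions were compared over the 9 cold libraries of each and over the 9 libraries of each without cold. In cold, 24 of the 139 genes were higher (17.3%) and 8 lower (5.76%) in N14 than in Col-0, where 15.1% of all genes were higher and 17.5% lower. The share of higher genes was near that of all genes. A fit of only the groups compared called 51 higher and 17 lower, and no share of all genes is given for that fit. Genes of starch, sugar and proline metabolism accounted for 5 of the higher genes and 0 of the lower ones, plastids and mitochondria for 6 and 1, and flavonoid synthesis for 1 and 4.

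CIPK25 ranged between 67.2 and 211 CPM in N14 (median 139) and between 25.6 and 78.2 CPM in Col-0 (median 36.4) in cold. The ranges overlapped over the 3 treatments together, and N14 lay above Col-0 without overlap within each of them. The difference was 1.64 ± 0.18 (edgeR adjusted p = 2.58e-08). ADH1, alcohol dehydrogenase, ranged between 37.5 and 151 CPM in N14 (median 85.6) and between 20.2 and 34.6 CPM in Col-0 (median 29.6), with no overlap and a difference of 1.49 ± 0.20 (edgeR adjusted p = 6.00e-07). AT1G24580, a RING/U-box protein, averaged 35.7 ± 12.3 CPM in N14 and 10.8 ± 2.99 CPM in Col-0 (SD, n = 9 libraries each), and differed by 1.70 ± 0.32 (edgeR adjusted p = 9.74e-05). EARLI1 averaged 407 ± 198 CPM in N14 and 149 ± 52.6 CPM in Col-0 (SD, n = 9 libraries each), and differed by 1.45 ± 0.27 (edgeR adjusted p = 0.000109). SUS1 averaged 516 ± 84.2 CPM in N14 and 288 ± 42.1 CPM in Col-0 (SD, n = 9 libraries each), and N14 was higher within each treatment without overlap.

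GSTF12 went the other way. It ranged between 14.1 and 118 CPM in N14 (median 33.3) and between 61.3 and 235 CPM in Col-0 (median 150) in cold, and N14 lay below Col-0 without overlap within each treatment. The difference was -2.08 ± 0.26 (edgeR adjusted p = 1.56e-07). AT4G14090 averaged 40.7 ± 50.6 CPM in N14 and 94.8 ± 58.0 CPM in Col-0, and TT7 averaged 37.6 ± 35.0 CPM in N14 and 80.8 ± 46.3 CPM in Col-0 (SD, n = 9 libraries each). They differed by -1.63 ± 0.28 (edgeR adjusted p = 3.28e-05) and -1.32 ± 0.27 (edgeR adjusted p = 0.000261). The flavonoid enzymes PAL2, 4CL3, TT5, CHIL, F3H and FLS1 did not pass the test, with differences between -0.45 (F3H) and 0.45 (FLS1) and edgeR adjusted p between 0.141 and 0.908. MYB111, the flavonol activator, was higher in N14 by 0.78 ± 0.19 (edgeR adjusted p = 0.00189). AT4G16563 was lower in N14 by -1.59 ± 0.49 (edgeR adjusted p = 0.0134), and the adjusted p was 0.0881 without C28P3L7T3 Col-0 replicate 2.

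Over the whole list of 25 flavonoid enzymes, 0 were higher and 12 lower in N14 in cold, with a median of -0.44 against 0.00 over all genes, of which 15.1% were higher and 17.5% lower. Outside the 139 genes the late anthocyanin genes were lower in N14: DFR by -2.67, UF3GT by -2.54, LDOX by -2.43 and AT5MAT by -2.36. PAP1, the MYB activator of these late genes, differed by -4.38 ± 0.47 (edgeR adjusted p = 1.12e-08). Of 24 genes of sugar, starch and proline metabolism, 12 were higher and 1 lower in N14, beside the same shares of all genes. The floral organ markers were lower in N14 too (5 of 5 tested), in cold and without it.

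Without cold, 26 of the 139 genes were higher (18.7%) and 11 lower (7.91%) in N14, where 18.3% of all genes were higher and 14.0% lower. AT5G62210, annotated as an embryo-specific protein, ranged between 13.5 and 53.5 CPM in N14 (median 31.2) and between 5.22 and 20.2 CPM in Col-0 (median 8.01). The ranges overlapped, and the difference was 1.81 ± 0.24 (edgeR adjusted p = 5.25e-07). In cold it was 0.10 ± 0.23 (edgeR adjusted p = 0.779), and the change between the conditions was not tested. AZI1 was higher in N14 by 1.46 ± 0.31 (edgeR adjusted p = 0.000536), SUS1 by 1.17 ± 0.15 (edgeR adjusted p = 1.94e-07) and AT1G67360, of the rubber elongation factor family, by 1.05 ± 0.19 (edgeR adjusted p = 7.04e-05). CIPK25 was higher by 2.17 ± 0.21 (edgeR adjusted p = 1.78e-09), at a mean of 8.13 ± 5.2 CPM in N14 and 1.75 ± 0.961 CPM in Col-0 (SD, n = 9 libraries each).

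Lower in N14 without cold were AT5G17460 by -1.32 ± 0.29 (edgeR adjusted p = 0.000568), the transporter-like AT4G34950 by -0.83 ± 0.17 (edgeR adjusted p = 0.000260), APL3 by -0.74 ± 0.22 (edgeR adjusted p = 0.00932) and BBX8 by -0.66 ± 0.19 (edgeR adjusted p = 0.00603). Between the conditions, 12 genes were higher in N14 both in cold and without it, which is 50% of the 24 called in cold and 46.2% of the 26 called without cold. Over all genes these shares were 59.3% and 49.1%. Lower in both were AT4G14090, TT7, GSTF12 and AT5G17460, 50% of the calls in cold and 36.4% of those without it, where the shares were 55.3% and 69.5% over all genes. With single libraries left out, between 23 and 42 genes were higher and between 8 and 13 lower without cold; 42 was reached without C35 Col-0 replicate 3.

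**Figure D5:**
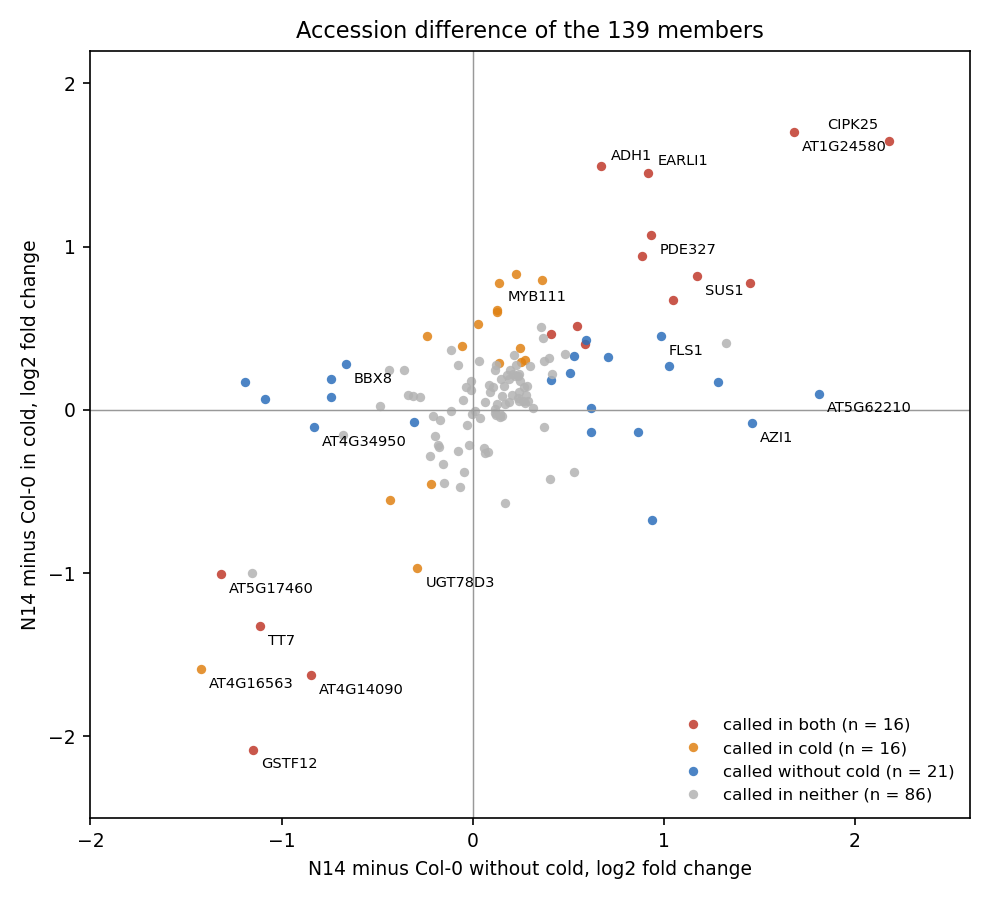
Difference between the accessions, N14 minus Col-0 as log2 fold change, in cold (y axis) against the same without cold (x axis) for the 139 genes, coloured by where the difference was called. CIPK25 and SUS1 stand high in both, GSTF12 and TT7 low in both, and AZI1 and AT5G62210 differed without cold but not at the threshold in cold.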

How the data were processed

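RNA was measured in 36 libraries, with polyA selection and a directional kit, per the labels' protocols. The authors deposited 7 tables of the same libraries. The STAR table, used for all results, held whole-number counts per gene with no normalization, as did the TopHat, BWA and CLC tables as deposited. Expected counts, as deposited from Salmon, kallisto and RSEM, were rounded to whole numbers here before use. The submitters' processing notes name the TAIR10 build and the aligners STAR 2.5.2a, TopHat2 2.1.1 and BWA 0.7.13. They also name HTSeq 0.7.2, SAMtools 1.3, Salmon 0.6.0, RSEM 1.2.30 and kallisto 0.42.5. The sources used here do not state the strand setting of the counting, and the effect of reading N14 on a Col-0 reference was not tested.

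The members, roles and 14 gene lists were chosen with earlier results of these data known. CPM values divide by the library's total. edgeR 4.0.16 (R 4.3.3) fitted the counts of all 12 groups at once, after filterByExpr and TMM scaling. The test was quasi-likelihood, with Benjamini-Hochberg adjustment over 20263 genes. Of the comparisons, 4 (both accessions together) and 2 promoter elements were added after the data were seen, and the fits were tested on simulated data. Alternatives were the other 6 tables, DESeq2 1.42.0, other scaling, no filter, only the groups compared, and each library left out.

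The text names the 10 genes with the largest smallest change, those at the rule's limit, the 5 with the highest cold CPM, the 5 widest and 5 narrowest, up to 4 called genes a direction (mean log2 CPM of at least 3) and list members. Other names, such as FIB2, NOP56, MIPS1, PHR1, DDB2, P5CS2 and AT4G33070, were chosen after their values were seen. Names came from the TAIR10.1 annotation, which also gave the promoters. ATCG00190 was not matched there.

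Replicate numbers follow the independent experiments. In cold, the correlation of same-numbered N14 and Col-0 libraries' deviations was over 0.1 in all 9 pairs, and a fit with the replicate block called 25 genes higher and 8 lower in N14.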

Additional observations from a re-analysis of the deposited data

How the results depend on the processing

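The rule took 139 genes. Applied to the other tables it took again 134 (BWA), 136 (CLC), 134 (kallisto), 135 (RSEM), 135 (Salmon) and 136 (TopHat), and 127 were taken from each. A pseudocount of 0.5 took 121 of them again, 5 took 104, TMM scaling 135, means of log values 131, and leaving out a replicate number between 112 and 123.

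Apart from leaving out a library, 34 counts of called genes moved by over 1.5 times and 284 did not. A fit of only the groups compared, in which fewer libraries gave the spread, called 0 genes lower with age in Col-0, 0 higher in N14, and 1 higher and 0 lower in both accessions. It called 3 higher and 4 lower between second and first cold in N14, 1 lower in Col-0, and 3 higher and 5 lower in both. In the first cold at 35 against 28 days it called 15 higher and 62 lower, and between accessions in cold 51 higher and 17 lower. DESeq2 called 1 lower after the lag in N14, 1 lower in the second cold in N14, 3 higher with age in N14, 8 higher with age in both, and 8 higher and 23 lower at 35 against 28 days. Without a filter 3 were lower with age in Col-0, 2 higher in N14, 6 lower in both, and 2 higher at 35 against 28 days. With age, the BWA, CLC, kallisto, RSEM, Salmon and TopHat tables gave 0 higher in N14, BWA gave 2 higher in both, and CLC, kallisto, RSEM and Salmon 3. The cause of these moves was not tested, and no shares of all genes are given for these fits.

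With single libraries left out, the counts ran from 0 to 2 lower after the lag in N14, from 0 to 13 lower with age in Col-0, from 0 to 5 higher with age in N14, and from 1 to 10 higher and 1 to 18 lower with age in both. They ran from 0 to 2 higher and 0 to 4 lower in the second cold, and from 1 to 4 higher and 2 to 11 lower at 35 against 28 days. Between accessions they ran from 23 to 42 higher and 8 to 13 lower without cold, and from 20 to 25 higher and 7 to 9 lower in cold. With the replicate block 29 genes were higher and 13 lower between accessions without cold. Over all 36 pairs of same-numbered libraries 28 correlations were over 0.1. Calls of named genes held in 424 such fits and were lost in 116, and no named change turned its direction.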
